A study of Mus musculus with 8 samples.

Results

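The genes described here are 34 members of fibroblast growth factor (FGF) signalling, chosen by symbol from a table of 33495 genes: 15 FGF ligands, 5 receptors, 4 adaptors and membrane modulators, 7 feedback inhibitors and 3 ETS transcription factors. All 34 had 1 row in the table, and 25 had enough reads to be tested. The RNA came from outflow tracts, the vessel-like segment between heart ventricles and great arteries, of mice on the CD-1 background. Mutant samples (n = 4) carried a knockout of the transcription factor gene Mef2c limited to the anterior heart field, the progenitor population that builds the outflow tract and right ventricle, and the other samples (n = 4) were wild type. No source used here states the Cre driver, the embryonic stage, the pooling of embryos or the litters. P-values therefore describe the spread among these 8 libraries, part of which may be technical.

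FGF ligands bind receptor tyrosine kinases on neighbouring cells together with heparan sulfate. The receptors signal through the docking proteins FRS2 and FRS3 to the RAS and ERK kinase cascade, which switches on the ETS factors Etv1, Etv4 and Etv5 and also the inhibitors of the Sprouty, Spred and Dusp families that dampen the same cascade. In the mouse embryo Fgf8 and Fgf10 are classical genes of the anterior heart field and the pharynx, and loss of FGF signalling there disturbs outflow tract formation.

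Library totals ran from 7138732 to 11012246 reads. Mef2c itself had gene-level counts of 1150 to 1423 in mutant and 728 to 1207 in wild type, a count that is not limited to the deleted part and so is no check of the labels. Mef2c, in the authors' deposited table, held rank 1 on exon test score, with a log2 ratio of -3.30 at the exon that changed most. Wild-type library 4 stood apart in reads of Foxe1, Epcam and Trp63, picked from a list of 10 pharyngeal epithelium markers. It had 85 reads of Foxe1 against 0 in each of the other 7 libraries, 113 of Epcam against 1 to 5, and 81 of Trp63 against 0 to 5. The summed level of the list was 191.8 CPM there and 74.02 to 105.2 CPM in the others. The median centred log2 level of the 3 markers tested was 0.226 there, below the 0.418 of wild-type library 1. The libraries mutant 1 and wild-type 4 held 9 and 3 reads of 4 Y-linked genes against 1595 to 2126 in the others. Replicates 1 and 2 of each group were sequenced on lane 1 and replicates 3 and 4 on lane 2.

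Of the 25 tested members, Fgf1 fell and Flrt2 rose in mutant, and 23 did not pass an adjusted p of 0.05 by edgeR's quasi-likelihood test. Over all 14757 genes tested, 1.50% passed in either direction, 0.562% higher and 0.942% lower. Members without overlap between the groups numbered 4 of 25, Fgf1, Fgf14, Flrt2 and Etv5, against 6.72% of all genes tested. The median log2 fold change of the tested members was 0.03, beside -0.0059 for all genes, and 14 members lay above 0 and 11 below. At an unadjusted p under 0.05 stood 5 members, against 11.4% of all genes.

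Fgf1, Flrt2 and Fgf14 are the members with the smallest unadjusted p by edgeR, though Fgf14 was not called. Fgf6, a family gene outside the 34, was the other FGF called. Promoter sequences are shown for those of them that the RefSeq promoter table (build GRCm38.p6) holds, because Mef2c encodes a factor that binds A/T-rich DNA and the question is what letters lie at these starts. Each runs 5′ to 3′ on the gene's strand, from 250 bases before to 50 bases after the start. Capitals mark matches to the letters TATTTTTA, a MEF2-type core chosen after the sequences were seen.
Flrt2 (plus strand, chr12:95691976-95692275): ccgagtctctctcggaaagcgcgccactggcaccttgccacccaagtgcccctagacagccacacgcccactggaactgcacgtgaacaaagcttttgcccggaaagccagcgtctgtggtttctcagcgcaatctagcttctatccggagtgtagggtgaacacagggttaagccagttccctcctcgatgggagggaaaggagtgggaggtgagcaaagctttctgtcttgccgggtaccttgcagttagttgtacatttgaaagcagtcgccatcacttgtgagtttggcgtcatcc
Fgf14 (minus strand, chr14:124192497-124192796): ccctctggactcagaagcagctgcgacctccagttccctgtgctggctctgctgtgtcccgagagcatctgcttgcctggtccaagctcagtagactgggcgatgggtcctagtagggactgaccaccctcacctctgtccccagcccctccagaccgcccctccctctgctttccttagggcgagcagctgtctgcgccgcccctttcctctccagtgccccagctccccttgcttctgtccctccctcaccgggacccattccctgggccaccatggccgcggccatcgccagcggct
Fgf6 (plus strand, chr6:127015292-127015591): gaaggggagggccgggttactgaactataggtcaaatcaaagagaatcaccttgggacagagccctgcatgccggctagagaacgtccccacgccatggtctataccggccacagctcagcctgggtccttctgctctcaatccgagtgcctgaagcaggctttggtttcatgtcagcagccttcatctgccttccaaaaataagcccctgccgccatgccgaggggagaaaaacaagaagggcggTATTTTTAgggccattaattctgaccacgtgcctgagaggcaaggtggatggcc

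The core TATTTTTA, searched on both strands, was found in the Fgf6 window, where it begins 4 bases before the start, and not in those of Flrt2 and Fgf14. The Fgf14 row spans 699221 bases, and the window shown may not lie at its 5′ end. The core was held by 2.72% of 32851 promoters of that length. It was chosen with the Fgf6 sequence already seen, so its presence there is no test. Among the 26 members with an entry, it occurred in windows of Fgf12 and Fgf13. A longer MEF2-type pattern, CTA and TAG with any 4 bases between them, reads the same on both strands and may overlap the core. It was found in 3.69% of all promoters and, among members, in a window of Fgf13. The windows of Fgf6, Flrt2 and Fgf14 did not hold it. An ETS-type pattern, CCGGAAGT, on both strands was found in 3.89% of all promoters and in those of Fgfrl1 and Frs2. A match is a run of letters, not a bound site.

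**Figure D1:**
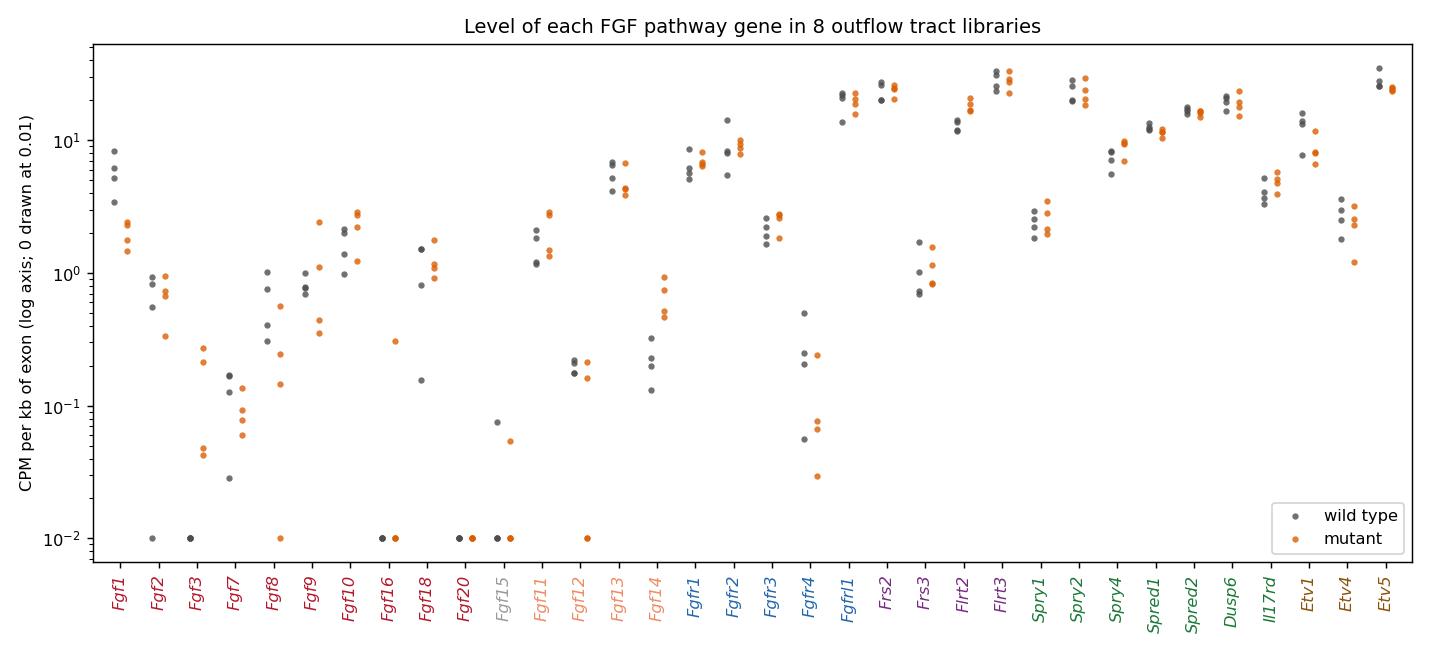
Level of each of the 34 members in each library, as CPM (counts per 1000000 reads) per kilobase of exon on a log axis, with 1 point per library, wild type in grey, mutant in orange, gene names coloured by role, and values of 0 drawn at 0.01. Fgf1 points of the mutant all lie below those of wild type, Fgf14 and Flrt2 points all lie above, and most other members overlap.

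Among the secreted ligands, Fgf1 was the one called. Fgf1 encodes acidic FGF, a ligand that can activate all the signalling FGF receptors. Its row (ENSMUSG00000036585) covers chromosome 18, 38998327 to 39089058, minus strand, mm9. It stood at 11.2, 8.26, 6.87 and 10.7 CPM in mutant libraries 1 to 4 and at 24.0, 15.95, 38.5 and 29.0 CPM in wild-type libraries 1 to 4. CPM are counts per 1000000 reads of the scaled library size. Every mutant library lay below every wild-type library. Mean levels were 9.26 CPM ± 2.05 for mutant and 26.9 ± 9.45 for wild type (SD, n = 4), which gave a log2 fold change of -1.53 ± 0.254 (SE, adjusted p = 0.0111, edgeR). In a bulk sample, fewer cells of a type and less RNA per cell cannot be told apart.

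Fgf1 was lower on both lanes, by 1.04 on the log2 scale on lane 1 and by 1.95 on lane 2, and the test of that difference between lanes did not pass (adjusted p = 0.276, edgeR). With the replicate number as a block the call was lost (adjusted p = 0.0574, edgeR). Without the 2 libraries lacking Y-linked reads the value was -1.60 and the call was also lost (adjusted p = 0.0702, edgeR), while without wild-type library 4 alone it was -1.50 (adjusted p = 0.0292, edgeR). On the table's coordinates Fgf1 overlaps Arhgap26 on the other strand, which had 1296 reads over all libraries and a fitted value of 0.08 on the log2 scale (adjusted p = 0.886, edgeR). In GENCODE M21 the exons of Fgf1 share 0 bases with those of other genes. In the authors' deposited table Fgf1 had a modified log2 fold change of -0.391 and rank 129 of 605 scored genes on exon test score, with a log2 ratio of -1.63 at the exon that changed most.

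Some markers of chamber myocardium were lower in mutant, as Fgf1 was. Of 8 chamber genes tested, 6 did not pass, 2 of them with values above 0 (the highest at 0.23), and 2 fell (the light chain Myl3 by 1.56 and the heavy chain Myh7 by 0.48 on the log2 scale, adjusted p = 0.0325 each, edgeR). The summed level of the 8, which abundant genes dominate, was 3128 to 4094 CPM in mutant against 4410 to 5988 in wild type, while the median centred log2 level overlapped, at -0.991 to 0.678 in mutant and -0.234 to 1.14 in wild type. In a fit that carried each library's median chamber level, the Fgf1 value was -1.70 (adjusted p = 0.00729, edgeR). That fit did not use the summed level, which separated the groups. The part of chamber cells in the Fgf1 value was not tested.

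Fgf10, a ligand of second heart field and lung mesenchyme, was measured at 12.3, 9.92, 5.50 and 12.9 CPM in mutant libraries 1 to 4 and at 8.99, 9.62, 4.40 and 6.29 CPM in wild-type libraries 1 to 4. The groups overlapped, and the log2 fold change of 0.46 (95% interval -0.18 to 1.10) did not pass (adjusted p = 0.619, edgeR). Fgf9, a ligand of epicardium and endocardium, and Fgf18, a ligand of bone and lung, were low in both groups. Their log2 fold changes were 0.43 (interval -0.722 to 1.59) and 0.37 (interval -0.772 to 1.52), so a doubling of either gene in mutant lies inside its interval. The sign rested on 1 library each, since Fgf9 stood at -0.33 without mutant library 4 and Fgf18 at -0.05 without wild-type library 1.

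Per kilobase of exon, Fgf1 was the secreted ligand with the highest mean level in wild type, at 5.77 CPM per kb ± 2.03 (SD, n = 4), followed by Fgf10 at 1.63 ± 0.542. In mutant the levels were 1.99 ± 0.440 for Fgf1 and 2.27 ± 0.750 for Fgf10, which did not differ beyond their spread. Fgf18 at 0.994 ± 0.649 and Fgf9 at 0.809 ± 0.133 CPM per kb came next in wild type, again within their spread of each other. Lengths are those of the deposited table, which for Fgf9 holds 1788 exon bases against 4649 in GENCODE M21, so the place of Fgf9 in this order is uncertain.

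The remaining secreted ligands fell under the filter on low counts. Fgf8, the ligand that maintains heart field cells, had 3, 6, 2 and 0 reads in mutant libraries 1 to 4 and, in the same order, 11, 10, 3 and 4 reads in wild type. The groups overlapped, and the summed level in mutant was 0.346 times that of wild type, with a 95% counting interval of 0.155 to 0.717 that covers counting error only. Fgf3, a pharyngeal and ear ligand, had 12 reads over the mutant libraries (1, 5, 1 and 5) and 0 in each wild-type library, which is too few for a fold change. Fgf2, which encodes basic FGF, had 36 and 30 reads over the mutant and wild-type groups, Fgf7 had 11 and 12, Fgf16, a cardiac ligand, had 4 and 0, and Fgf20 had 0 in all libraries. The hormone-like ligand Fgf15 had 1 read in each group.

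The intracellular FGFs (Fgf11 to Fgf14) are not secreted and are known for binding voltage-gated sodium channels. Fgf14 had the largest positive value of all tested members. It stood at 3.89, 2.16, 1.96 and 3.10 CPM in mutant libraries 1 to 4 and at 0.835, 0.550, 0.963 and 1.37 CPM in wild-type libraries 1 to 4, so the groups did not overlap. These levels rest on 103 reads in mutant and 30 in wild type. The log2 fold change of 1.58 ± 0.375 (SE) missed the threshold in edgeR (adjusted p = 0.0640) and passed it in DESeq2 (adjusted p = 0.0234). DESeq2, which called 440 genes in all against 222, was the only 1 of 22 alternatives that called Fgf14. On lane 2 alone the value was 1.10 (adjusted p = 0.598, edgeR). Fgf14 passed the filter on low counts through its mutant libraries, where it was high. In GENCODE M21 the exons of Fgf14 share 220 bases with a gene on the other strand.

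Fgf13 was the most abundant intracellular FGF per kilobase, at 5.68 CPM per kb ± 1.27 in wild type and 4.81 ± 1.32 in mutant (SD, n = 4). Its levels were 15.55, 17.2, 17.5 and 27.2 CPM in mutant libraries 1 to 4 and 26.1, 27.8, 20.9 and 16.5 CPM in wild-type libraries 1 to 4. On lane 1 Fgf13 had a log2 fold change of -0.72 that passed in that lane alone (adjusted p = 0.0424, edgeR), and on lane 2 it was 0.25, with an adjusted interaction p of 0.162 (edgeR). Fgf11 stood at 8.33, 8.77, 4.12 and 4.50 CPM in mutant and at 6.40, 3.71, 3.58 and 5.60 CPM in wild type. Its groups overlapped, and its log2 fold change of 0.39 did not pass (adjusted p = 0.698, edgeR). Fgf12 was under the filter, with 11 reads in mutant and 20 in wild type.

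**Figure D2:**
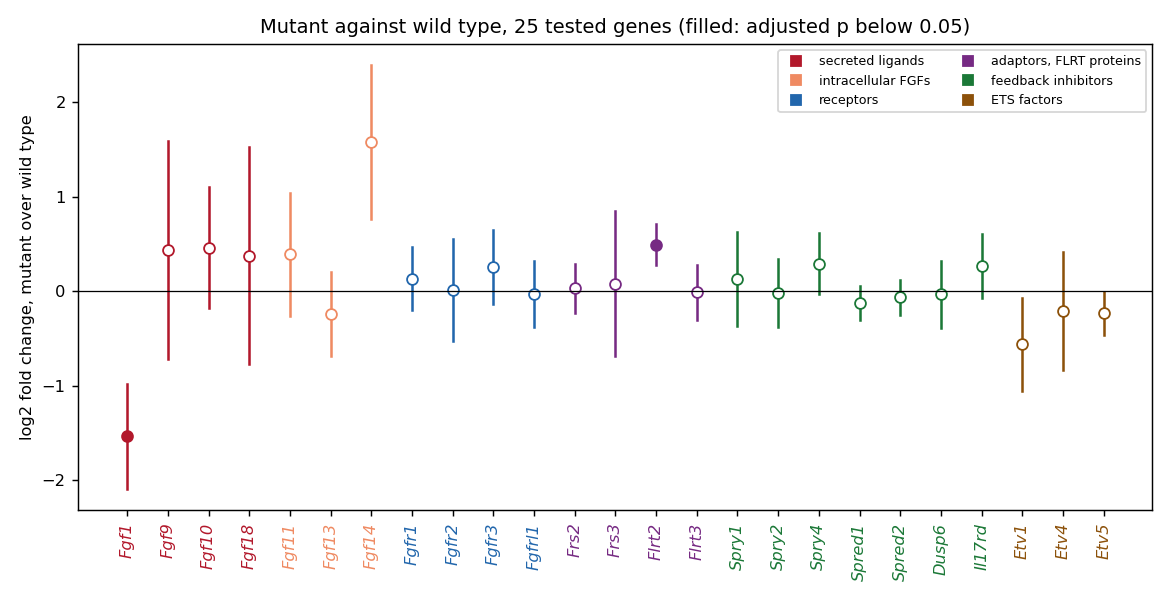
Log2 fold change of mutant over wild type for the 25 tested members, grouped by role, with 95% intervals from the edgeR fit and filled circles for an adjusted p below 0.05. Fgf1 at -1.53 and Flrt2 at 0.49 are the filled points, and Fgf14 at 1.58 has an interval of 0.762 to 2.39.

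No receptor passed the test. Fgfr1 to Fgfr4 are tyrosine kinase receptors, and Fgfrl1 is a receptor without the kinase domain. Fgfr2 stood at 74.95, 70.2, 65.9 and 58.4 CPM in mutant libraries 1 to 4 and at 59.4, 41.2, 61.9 and 105.3 CPM in wild-type libraries 1 to 4. The mutant values all lay inside the wild-type range, whose ends were wild-type library 2 and wild-type library 4, and the log2 fold change was 0.01 (interval -0.531 to 0.548, adjusted p = 0.997, edgeR). Wild-type library 4 is the library with the reads of Foxe1, Epcam and Trp63, and the part of epithelial cells in its Fgfr2 level was not tested. Without it the Fgfr2 value was 0.31 (adjusted p = 0.386, edgeR). The Fgfr2 row spans 3009069 bases and overlaps 41 other genes, among which Ctbp2 shares 314 exon bases with it in GENCODE M21, so some of its reads may belong elsewhere.

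Fgfr1 stood at 44.4, 53.0, 42.0 and 43.45 CPM in mutant libraries 1 to 4 and at 40.3, 33.0, 37.1 and 56.3 CPM in wild-type libraries 1 to 4, with a log2 fold change of 0.13 (interval -0.200 to 0.464). Fgfr3 stood at 17.8, 18.9, 19.1 and 12.6 CPM in mutant and at 13.1, 11.4, 15.3 and 17.8 CPM in wild type, with a log2 fold change of 0.25 (interval -0.141 to 0.643). Both overlapped between groups. Their intervals leave out a doubling or halving of Fgfr1, Fgfr2, Fgfr3 and Fgfrl1, the last of which had a log2 fold change of -0.03 (interval -0.375 to 0.317). Fgfr4, with 13 reads over the mutant and 25 over the wild-type libraries, was not tested.

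Per kilobase of exon, the wild-type levels in CPM per kb (SD, n = 4) were 19.8 ± 4.08 for Fgfrl1, 8.96 ± 3.64 for Fgfr2, 6.40 ± 1.56 for Fgfr1, 2.09 ± 0.400 for Fgfr3 and 0.253 ± 0.184 for Fgfr4, and Fgfr2 and Fgfr1 lay within their spread of each other. Among receptors, Fgfr2 and Fgfr3 had an exon test score in the authors' deposited table, Fgfr2 at rank 164 with a log2 ratio of 1.75 at its most changed exon and Fgfr3 at rank 375 with 1.24.

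The makeup of the receptor pool was compared as shares. Of the summed per-kilobase level of the 4 kinase receptors, Fgfr2 made up 48.4% ± 2.30 for mutant and 49.6% ± 4.41 for wild type (SD, n = 4). Fgfr1 took 37.75% ± 2.79 and 36.8% ± 3.39, Fgfr3 took 13.3% ± 1.80 and 12.1% ± 1.52, and Fgfr4 took 0.586% ± 0.590 and 1.49% ± 1.13. For Fgfr1, Fgfr2 and Fgfr3 each pair of means lay closer together than the SD of either group, and the Fgfr4 shares rest on few reads. These shares and the receptor levels per kilobase use the deposited exon lengths, 6511 bases for Fgfr1 and 7473 for Fgfr2. GENCODE M21 holds 9875 and 10328, and there the exons of Fgfr3 share 998 bases with a gene on the other strand. The sizes of the shares are therefore uncertain.

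Among adaptors and membrane modulators, Flrt2 rose. FLRT2 is a transmembrane protein of the FLRT family, which includes partners of FGF receptors and is also known for cell guidance and adhesion. The row (ENSMUSG00000047414) covers chromosome 12, 96930436 to 97023425, plus strand, mm9, and overlaps no other row. Flrt2 stood at 159.7, 128.5, 143.6 and 131.2 CPM in mutant libraries 1 to 4 and at 110.0, 90.9, 92.7 and 106.8 CPM in wild-type libraries 1 to 4. Every mutant library lay above every wild-type library. Mean levels were 140.7 CPM ± 14.2 for mutant and 100.1 ± 9.70 for wild type (SD, n = 4), which gave a log2 fold change of 0.49 ± 0.0999 (SE, adjusted p = 0.0286, edgeR).

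The size of the Flrt2 difference stayed between 0.42 and 0.54 over 22 alternatives, but the call held in 12 of them. The call was lost without mutant library 1 (adjusted p = 0.118, edgeR), mutant library 3 (0.104), wild-type library 2 (0.0552) or wild-type library 3 (0.0883), with lane (0.0539) or chamber gene level (0.0505) as a covariate, without the 2 libraries lacking Y-linked reads (0.128), with the replicate number as a block (0.0837), and within a lane. On lane 1 alone the value was 0.52 (adjusted p = 0.0655, edgeR) and on lane 2 alone 0.45 (adjusted p = 0.195, edgeR). In the authors' deposited table Flrt2 had a modified log2 fold change of 0.260.

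Some markers of epicardium and endothelium were higher in mutant, as Flrt2 was. All 6 epicardial markers tested had values above 0, of which Aldh1a2, a retinoic acid enzyme, passed at 1.25, and their summed level was 203.8 to 272.4 CPM in mutant against 114.4 to 217.6 in wild type. Of 8 endothelial markers, the receptor gene Tek passed at 0.74, 7 did not pass, 2 lay below 0 (the lowest at -0.87), and their summed level was 684.1 to 851.6 CPM against 562.2 to 662.4. The part of these cell types in the Flrt2 value was not tested.

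Flrt3, the paralog also expressed in the heart, did not pass the test. It stood at 113.2, 138.1, 93.8 and 118.8 CPM in mutant libraries 1 to 4 and at 137.7, 105.9, 127.0 and 96.7 CPM in wild-type libraries 1 to 4, with a fitted log2 difference of -0.01 (interval -0.304 to 0.278, adjusted p = 0.986, edgeR). Whether Flrt2 and Flrt3 differ in response was not tested. The docking proteins Frs2 and Frs3 had log2 fold changes of 0.03 (interval -0.232 to 0.289) and 0.08 (interval -0.688 to 0.849), with Frs2 at 135.6 CPM ± 13.1 in mutant and 133.0 ± 22.0 in wild type and Frs3 at 2.795 ± 0.886 and 2.66 ± 1.20 (SD, n = 4).

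**Figure D3:**
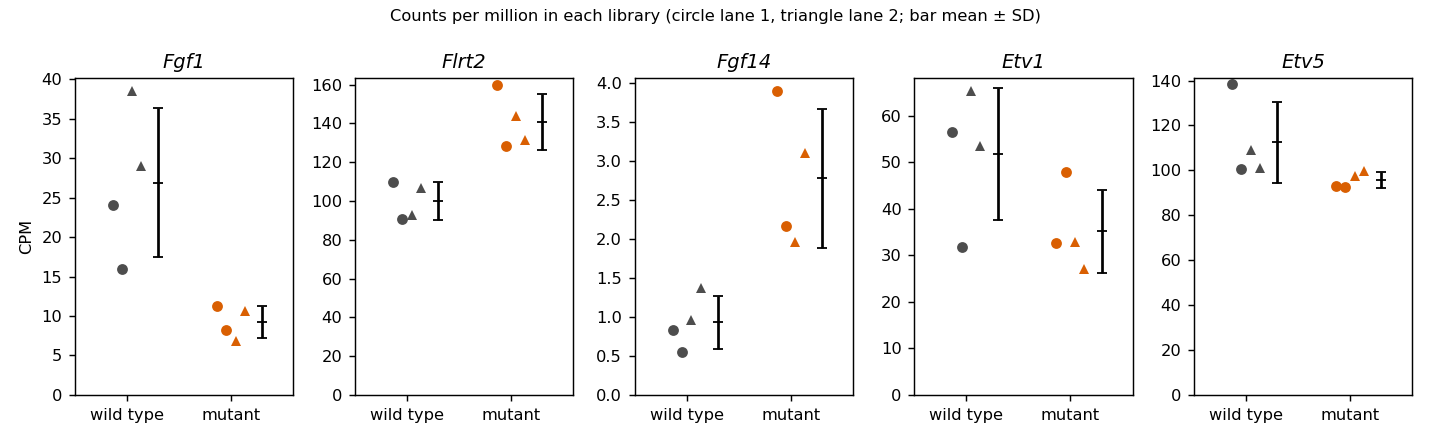
CPM in each library for the 5 members with an unadjusted p under 0.05, with circles for lane 1, triangles for lane 2 and bars for the mean ± SD of 4 libraries. Wild-type library 2 lies within the mutant range for Etv1, and all mutant libraries of Etv5 sit between 92.4 and 99.7 CPM.

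Feedback inhibitors did not pass the test in any of 7 members, and their median log2 fold change was -0.0233. Sprouty proteins block receptor signalling upstream of ERK. Spry1 stood at 8.22, 5.72, 6.18 and 10.2 CPM in mutant libraries 1 to 4 and at 7.42, 5.36, 6.47 and 8.47 CPM in wild-type libraries 1 to 4. Spry2 stood at 36.4, 28.0, 31.1 and 45.05 CPM in mutant and at 43.3, 38.9, 29.9 and 30.6 CPM in wild type. Groups overlapped for both, with log2 fold changes of 0.13 (interval -0.365 to 0.625) for Spry1 and -0.02 (interval -0.382 to 0.336) for Spry2.

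Spry4 had the smallest p of the inhibitors. It stood at 44.1, 45.0, 31.8 and 42.65 CPM in mutant libraries 1 to 4 and at 25.7, 32.7, 37.4 and 38.0 CPM in wild-type libraries 1 to 4. Mutant library 3 lay among the wild-type values, and the log2 fold change was 0.29 (interval -0.0299 to 0.614, adjusted p = 0.506, edgeR). Il17rd, also called Sef, a membrane inhibitor of FGF signalling, stood at 41.9, 47.0, 39.3 and 32.3 CPM in mutant and at 27.0, 30.0, 33.6 and 43.0 CPM in wild type. Its log2 fold change was 0.27 (interval -0.072 to 0.604, adjusted p = 0.581, edgeR), with 0.64 on lane 1, which passed in that lane alone (adjusted p = 0.0403, edgeR), and -0.11 on lane 2.

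Dusp6, the phosphatase that inactivates ERK, is a common readout of FGF activity. It stood at 14.0, 11.95, 15.2 and 18.5 CPM in mutant libraries 1 to 4 and at 13.1, 16.2, 15.3 and 16.8 CPM in wild-type libraries 1 to 4, with a log2 fold change of -0.03 (interval -0.386 to 0.317, adjusted p = 0.965, edgeR). The Dusp6 row holds 784 exon bases, so its level per kilobase is uncertain. The Spred proteins, which inhibit RAS activation, varied little. Spred1 stood at 82.6, 70.9, 78.4 and 78.9 CPM in mutant and at 84.8, 91.2, 81.45 and 82.8 CPM in wild type, with a log2 fold change of -0.13 (interval -0.310 to 0.0511), and Spred2 had -0.07 (interval -0.248 to 0.115).

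The 3 ETS factors had values below 0 and did not pass. Etv1 stood at 32.8, 47.9, 33.0 and 27.1 CPM in mutant libraries 1 to 4 and at 56.6, 31.8, 65.35 and 53.6 CPM in wild-type libraries 1 to 4. Wild-type library 2 was within the mutant range and mutant library 2 was the highest of its group. The log2 fold change was -0.56 ± 0.223 (SE, adjusted p = 0.374, edgeR), with -0.15 on lane 1 and -0.99 on lane 2. Etv1 passed on lane 2 alone (adjusted p = 0.0190, edgeR) and, at -0.93, in the fit that carried each library's chamber level (adjusted p = 0.00368, edgeR).

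Etv5 stood at 93.05, 92.4, 97.4 and 99.7 CPM in mutant libraries 1 to 4 and at 138.6, 100.5, 109.2 and 101.1 CPM in wild-type libraries 1 to 4. The groups did not overlap, though the gap between mutant library 4 and wild-type library 2 was under 1 CPM. The log2 fold change of -0.23 ± 0.106 (SE) did not pass (adjusted p = 0.432, edgeR). Etv4 stood at 3.77, 7.88, 7.17 and 9.99 CPM in mutant and at 5.56, 9.21, 11.1 and 7.79 CPM in wild type, which overlapped, with a log2 fold change of -0.21 (interval -0.839 to 0.413, adjusted p = 0.845, edgeR).

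Many genes, members included, had opposite signs on the 2 lanes. Within lanes, each with 2 libraries per group, 11 of 25 members had values above 0 on lane 1 and below 0 on lane 2, and 4 the reverse, so 15 changed sign, while over all genes tested in both lanes 54.9% did. The receptors Fgfr1, Fgfr2, Fgfr3 and Fgfrl1 and the docking proteins Frs2 and Frs3 were all among the 11. The test of the group by lane interaction had 8 of 25 members at an unadjusted p under 0.05, against 16.6% of all genes, and 0 members passed after adjustment, against 0.00678% of all genes (edgeR). Frs2 had the smallest adjusted interaction p, 0.120, with log2 fold changes of 0.33 on lane 1 and -0.26 on lane 2.

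For Frs2, both mutant libraries lay above both wild-type libraries on lane 1 (140.0 and 148.1 against 113.6 and 114.8 CPM) and below them on lane 2 (137.1 and 117.2 against 155.9 and 147.8 CPM). For the receptors, values of single libraries stood at the ends. On lane 1, wild-type library 2 had the highest chamber gene level of all libraries, with a median centred log2 CPM of 1.14, and the lowest Fgfr1, Fgfr2, Fgfr3 and Fgfrl1 of all libraries. On lane 2, wild-type library 4 had the reads of Foxe1, Epcam and Trp63 and the highest Fgfr1 and Fgfr2 of all libraries. Mutant library 4, also on lane 2, had the highest chamber level of its group, 0.678, and the lowest Fgfr2, Fgfr3 and Fgfrl1 of its group. The part of these libraries' makeup in the receptor values was not tested.

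**Figure D4:**
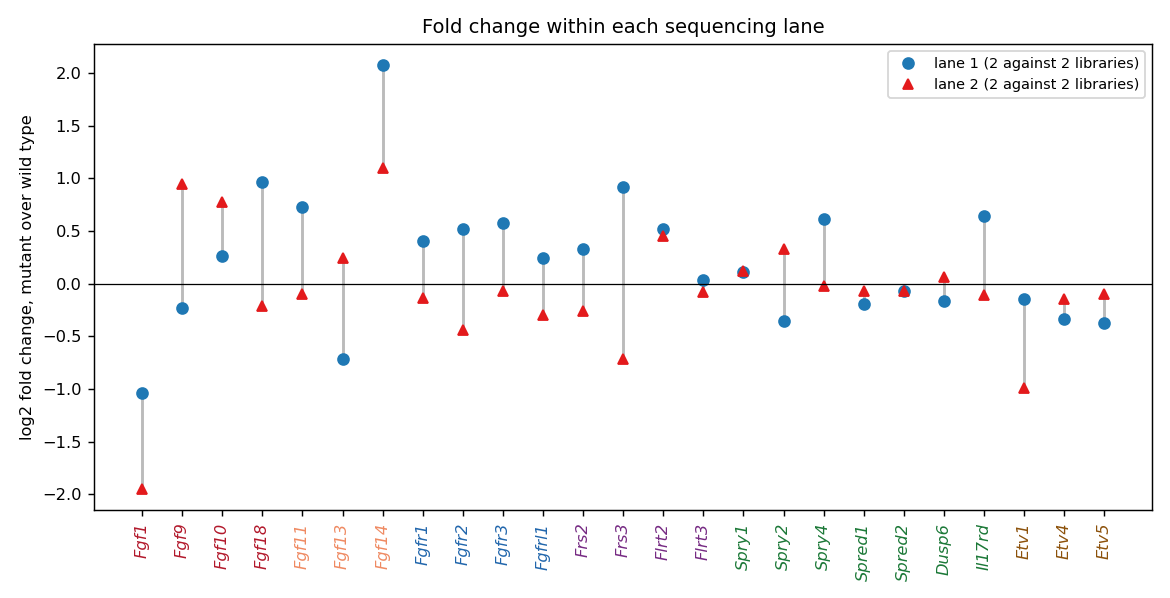
Log2 fold change of mutant over wild type within lane 1 (circles) and lane 2 (triangles) for the 25 tested members, each from 2 libraries per group. Fgf1, Fgf14, Flrt2, Etv1 and Etv5 keep their sign in both lanes, while the 4 tested receptors lie above 0 on lane 1 and below 0 on lane 2.

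Other genes of the pathway were read from lists. Among 14 further genes of the FGF family, 5 were tested and 1 fell. That gene was Fgf6, an FGF of skeletal muscle and its regeneration, at chromosome 6, 126965604 to 126978197, plus strand, mm9. It had 1, 0, 0 and 2 reads in mutant libraries 1 to 4 and, in the same order, 24, 22, 12 and 10 reads in wild type. Summed levels stood at a wild-type to mutant ratio of 25.7 (95% interval 8.44 to 128, counting error only). The fitted log2 fold change was -4.46 ± 0.646 (SE, adjusted p = 0.00379, edgeR). Fgf6 passed the filter on low counts only through its wild-type libraries, where it was high, so this call is not independent of that selection. Kl, which encodes the FGF co-receptor alpha-klotho, was not tested and is named after its values were seen. It had 10, 1, 4 and 8 reads in mutant libraries 1 to 4 and, in the same order, 1, 0, 0 and 1 reads in wild type.

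Over all genes tested, 1.50% passed and 11.4% stood at an unadjusted p under 0.05, the shares beside which these lists are given. In the RAS and ERK cascade, 0 of 22 tested genes passed by edgeR, with 1 at an unadjusted p under 0.05, a median log2 fold change of 0.00768 and no value beyond 0.207 in size. Of 22 genes for heparan sulfate enzymes and for the core proteins that carry its chains, 0 passed, with 2 at an unadjusted p under 0.05 and a median of 0.0853. Among 13 other genes that respond to ERK, Dusp4, an ERK phosphatase, rose. It stood at 73.1, 61.3, 74.0 and 58.9 CPM in mutant libraries 1 to 4 and at 40.8, 38.1, 46.8 and 54.1 CPM in wild-type libraries 1 to 4. The groups did not overlap, and the log2 fold change was 0.57 ± 0.126 (SE, adjusted p = 0.0425, edgeR). On lane 1 alone Dusp4 had 0.76 (adjusted p = 0.01475, edgeR) and on lane 2 alone 0.39 (adjusted p = 0.444, edgeR). Its value in the other alternatives is not given here. Of 12 tested heart field genes listed as possible upstream regulators of Fgf8 or Fgf10, 0 passed, with a median of -0.152. Whether they act on these ligands was not tested. At an unadjusted p under 0.05 stood 2 of these 12 genes, the knocked-out gene Mef2c itself and Eya1, which is named after its values were seen. Mef2c lay above 0, at a gene-level log2 fold change of 0.32 (adjusted p = 0.212, edgeR), from counts not limited to the deleted part. The value of Eya1 is not given here.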

How the data were processed

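The authors deposited 1 table of raw counts, whole numbers for each gene in each library. The submitters' processing notes name TopHat2 2.0.4 and the build mm9. How reads were counted, whether strand was used and which annotation release served are not given in the sources read. The authors also deposited a modified log2 fold change and the log2 ratio of the most changed exon, and an exon test score of unstated scale used here for ranks, per the file headers. Exon length per gene came from the same table. Rows naming no gene numbered 0, and 8 columns of per-sample values, variance-corrected log2 values per the file headers, were not used here.

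The test was edgeR 4.0.16 under R 4.3.3 (filterByExpr, TMM scaling, robust quasi-likelihood test, group alone in the design, two-sided), with Benjamini-Hochberg adjustment over 14757 genes and a threshold of 0.05. The standard error was the log2 fold change divided by the square root of F, and 95% intervals used the test's degrees of freedom. CPM used TMM-scaled library sizes, and 3 counts, the floor, equalled 0.278 to 0.413 CPM. Intervals on counts cover counting error only. No replicates were near copies: chi-square per degree of freedom ran from 5.77 to 20.67 between libraries of a group (genes with 20 or more reads in the pair). The procedure was tested on simulated data. Members and lists were chosen with earlier results of these data known. Values in each library are given for Fgf8, Fgf10, Fgfr1, Fgfr2, Spry1, Spry2, Dusp6, Etv4, Etv5 and the 12 members with the smallest p, and for called genes of the other lists. Flrt3 was added as the paralog of Flrt2 after its values were seen. Alternatives changed the scaling, filter, tool, covariates or libraries. Other tools were DESeq2 1.42.0, limma 3.58.1 (voom) and Python 3.11.15 with pandas 2.3.3 and matplotlib 3.10.9. Gene models for exon overlap came from GENCODE M21 on another build, and no coordinate was converted.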

Additional observations from a re-analysis of the deposited data

Results flagged for a closer look

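Each of the 25 tested members was searched in each group of 4 for a library far from the others, on log2(CPM + 0.25). This marked 2 of 50 groups, where chance alone would mark about 5%. Wild-type library 2 held Fgfrl1 at 35.6 CPM, while the other wild-type libraries held 54.3 to 58.6 CPM. Mutant library 3 held Spry4 at 31.8 CPM, while the other mutant libraries held 42.65 to 45.0 CPM.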

How the results depend on the processing

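Of 22 alternatives, 20 called 1 or more members and 2 called 0. The main count was 2 members. It was 0 with a replicate block, where Fgf1 had an adjusted p of 0.0574 and Flrt2 of 0.0837 and 76 of all genes were called, and 0 without the 2 libraries lacking Y-linked reads, where 95 of all genes were called (edgeR). Whether replicate numbers pair the samples is not stated. Same-numbered deviations correlated at -0.287 to 0.222, and 2 of 8 samples correlated best with their own number. With 4 libraries per group these values cannot settle whether samples were paired. With lane as a covariate 1 member was called. Leaving out each library in turn gave 1 to 2 called members, and a member median of -0.00474 to 0.236, the highest without wild-type library 4. The median was 0.179 on lane 1 alone, -0.0813 on lane 2 alone and -0.0735 without the library of each group with the highest chamber gene level, an alternative chosen after seeing the data. DESeq2 called 3 members, with Fgf14 the third, and 440 genes in all against 222. Lane 1 alone called 836 genes and lane 2 alone 119. Fgf1 was called in 20 of 22 alternatives, at -1.95 to -1.04. Among 550 pairs of member and alternative, 57 had the other sign, none of them called in either fit. Members under the filter, such as Fgf8, are limited by depth.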
